A study of Mus musculus with 7 samples.

Results

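The neuronal pentraxins are a family of 3 genes, *Nptx1*, *Nptx2* and *Nptxr*, and they were followed here in the forebrain of mice with and without the transcription factor Lhx6. Members were found by their gene symbol in the deposited gene annotation of the series, joined to the count table by Ensembl gene ID. All 3 were present among the 47729 genes counted, and all 3 were among the 19684 genes with enough reads to test (at least 10 counts in at least 3 libraries).

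Neuronal pentraxins are extracellular proteins of synapses, related to the pentraxins of blood plasma. *Nptx1* and *Nptx2* (also called Narp) encode secreted proteins, and *Nptxr* encodes a relative that is anchored in the membrane and assembles with both. They bind the outer part of AMPA-type glutamate receptors and gather these receptors at excitatory synapses, *Nptx2* in particular at synapses that excitatory neurons make on parvalbumin interneurons, and transcription of *Nptx2* is raised by neuronal activity.

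Forebrain RNA was sequenced from 15-day-old F1(C57BL/6 X 129Sv) mice. Controls were heterozygous (Lhx6+/-, 4 libraries) and mutants homozygous (Lhx6-/-, 3 libraries) for the null allele Lhx6tm2Vpa, so every animal carried it, and its effect was not limited to one cell type. Each library was a pool of 2 animals. Sex was not balanced, with 2 pools of females and 2 of males among controls, and 2 mixed pools and 1 of females among mutants, and as the count columns do not show which pool they are, its part in the results was not tested. Lhx6 is needed by interneurons born in the medial ganglionic eminence (MGE), among them the parvalbumin and somatostatin cells.

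Libraries held 32556304 to 38069151 expected counts. Values below are normalized counts (expected counts scaled to a common library size), named by the number that each library carries in the count table. The targeted gene followed the labels: *Lhx6* had 615, 522, 476 and 522 normalized counts in controls (libraries 2, 3, 10 and 11), against 70.9, 76.6 and 70.1 in mutants (libraries 5, 12 and 13). Among markers of MGE-derived interneurons, *Sst* had 4565 to 6248 normalized counts in controls and 542 to 670 in mutants (log2 fold change of -3.19), *Pvalb* and *Nxph1* also fell, and *Tac1* rose, a call lost without library 2, 10, 12 or 13. The excitatory neuron marker *Slc17a7* stood at 62495 or more normalized counts in every library, which does not by itself establish the forebrain label. Library numbers fell into a low run (2, 3 and 5) and a high run (10 to 13), and what the runs stand for is not stated.

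The loci lie on 3 chromosomes (GRCm38). *Nptx1* (ENSMUSG00000025582) is at chr11:119538719-119547753 on the minus strand, *Nptx2* (ENSMUSG00000059991) at chr5:144545902-144557478 on the plus strand and *Nptxr* (ENSMUSG00000022421) at chr15:79786352-79804766 on the minus strand. Each has 5 exons in its longest transcript. The exons of *Nptx1* cover 5217 bases, those of *Nptxr* 5169 bases and those of *Nptx2* 2536 bases, so levels of different members are compared below only per kilobase.

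The coding sequences were close relatives but not close enough for reads to be confused. The stretch shown is a 60-base coding window in exon 4 of each gene, chosen because the family is most alike there. It spans chr11:119543182-119543241 in *Nptx1*, chr5:144555417-144555476 in *Nptx2* and chr15:79790266-79790325 in *Nptxr*, and each sequence is written 5′ to 3′ on the strand of its gene. Capitals mark the 42 bases that all 3 genes share, and lower case marks the rest:
Nptx1: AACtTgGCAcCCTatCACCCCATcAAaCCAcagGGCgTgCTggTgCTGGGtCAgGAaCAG
Nptx2: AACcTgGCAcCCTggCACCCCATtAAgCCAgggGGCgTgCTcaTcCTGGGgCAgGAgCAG
Nptxr: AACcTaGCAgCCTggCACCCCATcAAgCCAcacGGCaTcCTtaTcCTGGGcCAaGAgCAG
Even in this window the longest run shared by all 3 was 8 bases. Along the whole coding sequence, the longest stretch shared by a pair was 16 bases for *Nptx1* and *Nptx2*, 13 bases for *Nptx1* and *Nptxr* and 19 bases for *Nptx2* and *Nptxr*, all shorter than the 36-base reads. No 36-base word of any member's transcripts occurred in another member, so a read without mismatches could not be moved from one pentraxin to another.

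At the level of the encoded residues, *Nptx1* and *Nptx2* were the closest pair (58.2% identical over 409 aligned residues), followed by *Nptx2* and *Nptxr* (54.8%) and *Nptx1* and *Nptxr* (49.8%). Identity was concentrated at the carboxyl end, where the pentraxin domain that gives the family its name lies. There it was 69.3% for *Nptx1* and *Nptx2* over the last 200 residues, against 47.6% before that point.

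*Nptx2* was the member that differed between genotypes. Its normalized counts were 2383, 2359, 2296 and 2969 in controls 2, 3, 10 and 11, and 14216, 12108 and 10190 in mutants 5, 12 and 13. Every mutant library stood above every control library, and the lowest mutant, 10190, was far above the highest control, 2969. The means were 2502 ± 314 (SD, n = 4) in controls and 12171 ± 2014 (SD, n = 3) in mutants, a 4.86-fold rise (95% interval 3.92 to 6.04). On the log2 scale the difference was 2.28 ± 0.14 (SE), with an adjusted p of 0.000174 (quasi-likelihood F-test in edgeR, Benjamini-Hochberg over all tested genes, called at 0.05 or less). In that test 4.85% of the 19684 tested genes were called in either direction (2.97% higher and 1.87% lower in mutants), while all mutant libraries lay above all controls for 10.7% of genes and below all controls for 9.00%. Of all tested genes, 69 had a larger log2 fold change than *Nptx2* and 7 had a smaller p. In bulk forebrain, more cells that express *Nptx2* and more *Nptx2* RNA per cell cannot be told apart, and the same holds for every difference reported here.

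*Nptx1*, the other secreted member, was not called. It had 9631, 8630, 9861 and 10570 normalized counts in controls 2, 3, 10 and 11, and 10810, 11645 and 9234 in mutants 5, 12 and 13. The groups overlapped, since mutant 13 lay below 3 of the 4 controls. Means were 9673 ± 802 (SD, n = 4) and 10563 ± 1224 (SD, n = 3), a log2 fold change of 0.13 ± 0.11 (SE) with an adjusted p of 0.616 in edgeR. The 95% interval of the fold was 0.923 to 1.29, and its upper end lay below the lower end of the interval of *Nptx2*, 3.92.

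*Nptxr*, the membrane-anchored partner, was the most abundant and was not called either. Its normalized counts were 46357, 41286, 48891 and 51646 in controls 2, 3, 10 and 11, and 45205, 46785 and 42251 in mutants 5, 12 and 13. All 3 mutants fell inside the control range. The log2 fold change was -0.07 ± 0.10 (SE), with an adjusted p of 0.773 in edgeR and a 95% interval of the fold from 0.819 to 1.11.

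**Figure D1:**
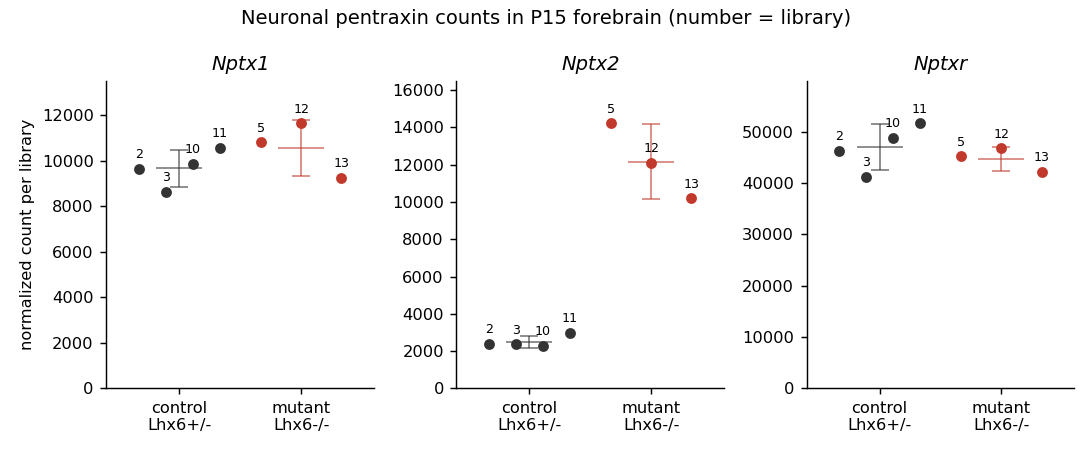
Normalized counts (vertical axis, from 0) of each neuronal pentraxin in the 4 control and 3 mutant libraries. Points are libraries with their numbers, and the bar and whiskers give the mean ± SD of the group. *Nptx2* in mutants (10190 to 14216) lies wholly above controls (2296 to 2969), whereas the groups overlap for *Nptx1* and *Nptxr*.

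Spread between libraries, relative to the mean, was largest for *Nptx2* in both groups. The coefficient of variation in controls was 8.29% for *Nptx1*, 12.5% for *Nptx2* and 9.36% for *Nptxr*, and in mutants it was 11.6%, 16.5% and 5.14%. Control library 11 held the highest value of each member among controls. Mutant library 13 held the lowest value of each member among mutants.

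The difference for *Nptx2* was present in both runs of library numbers, with log2 fold changes of 2.58 in libraries 2, 3 and 5 and of 2.09 in libraries 10 to 13. *Nptx1* gave 0.25 and 0.02, and *Nptxr* gave 0.05 and -0.18, so the direction of *Nptxr* was not the same in both runs. The low run holds 1 mutant library and was not tested alone. Libraries 10 to 13 alone, an alternative chosen after seeing the data, gave an adjusted p in edgeR of 7.89e-05 for *Nptx2*, 0.855 for *Nptx1* and 0.25 for *Nptxr*. Leaving out each library in turn left the log2 fold change of *Nptx2* between 2.17 and 2.40, with adjusted p-values of 0.000403 to 0.00163 in edgeR.

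Per kilobase of exon, the order of the family changed between genotypes. In controls *Nptxr* stood at 9101 ± 852 normalized counts per kilobase, *Nptx1* at 1854 ± 154 and *Nptx2* at 987 ± 124 (SD, n = 4). In mutants *Nptxr* stood at 8657 ± 445, *Nptx2* at 4799 ± 794 and *Nptx1* at 2025 ± 235 (SD, n = 3). *Nptx2* was thus the least abundant member in all 4 control libraries and the second most abundant in all 3 mutant libraries, and neighbours in each order were separated by more than their spread. Ranked by mean level per kilobase among all tested genes, *Nptx2* stood at place 2001 in controls and 298 in mutants, *Nptx1* at 972 and 830, and *Nptxr* at 134 and 128.

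**Figure D2:**
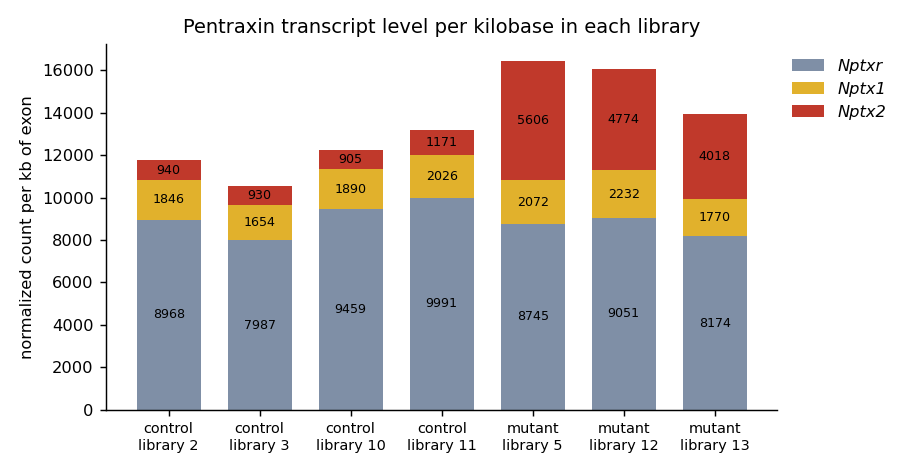
Normalized counts per kilobase of exon (vertical axis) of *Nptxr*, *Nptx1* and *Nptx2* stacked for each library, with each value printed in its block. The *Nptx2* block is 905 to 1171 in controls and 4018 to 5606 in mutants, and the mean *Nptxr* block is 9101 in controls and 8657 in mutants.

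The share of *Nptx2* in the family differed between genotypes. *Nptx2* made up 7.99%, 8.80%, 7.39% and 8.88% of the summed per-kilobase level of the family in controls 2, 3, 10 and 11, and 34.1%, 29.7% and 28.8% in mutants 5, 12 and 13. The summed level was 11942 ± 1090 normalized counts per kilobase in controls and 15481 ± 1328 in mutants (SD, n = 4 and 3). The lowest mutant sum, 13962, was above the highest control sum, 13188.

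Ratios between members within a library remove whatever scales a whole library. The ratio of *Nptx2* to *Nptx1* per kilobase was 0.479 to 0.578 in controls and 2.14 to 2.71 in mutants, so *Nptx1* was the higher of the secreted members in every control and *Nptx2* in every mutant. The ratio of *Nptx2* to its membrane partner *Nptxr* was 0.0957 to 0.117 in controls and 0.492 to 0.641 in mutants. The ratio of *Nptxr* to *Nptx1* was tight in controls, at 4.86, 4.83, 5.0 and 4.93 in libraries 2, 3, 10 and 11, and lower in each mutant, at 4.22, 4.06 and 4.62 in libraries 5, 12 and 13. These ratios did not overlap between groups although neither gene was called alone, and as descriptions of 7 libraries they carry no test.

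Part of the *Nptxr* locus is shared with another gene. *Npcd* lies on the same strand and overlaps 890 exon bases, so that 17.2% of the exon bases of *Nptxr* and 16.7% of its 36-base words also belong to *Npcd*. *Npcd* was estimated at 102, 14.1, 486 and 1169 normalized counts in controls 2, 3, 10 and 11, and at 68.0, 1187 and 674 in mutants 5, 12 and 13. These values were scattered within both groups, and they amounted to 1.15% of the *Nptxr* counts. Adding both genes in each library gave a log2 fold change of -0.07, close to that of *Nptxr* alone, so the division of reads between them moved the value little. *Nptx2* shared no 36-base word with any other gene.

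On the pattern over the 7 libraries, the members did not follow one another closely. Pearson's r on log2 CPM (counts scaled to library size) was 0.538 between *Nptx1* and *Nptx2*, 0.613 between *Nptx1* and *Nptxr* and -0.241 between *Nptx2* and *Nptxr*. Among 6177 well-expressed genes, those most like *Nptx2* were *Gdpd5* (r = 0.997), *Sorcs3* (r = 0.992), a sorting receptor of neurons, and *Mpp3* (r = 0.989), a membrane scaffold protein. All 3 also rose in mutants, with log2 fold changes of 1.02, 0.99 and 0.50, each smaller than that of *Nptx2*. Those most like *Nptx1* were *Rnf150* (r = 0.921), *Spns2* (r = 0.914) and *Ptprj* (r = 0.909), and those most like *Nptxr* were *Atxn1* (r = 0.982), *Tsc1* (r = 0.964) and *B930095G15Rik* (r = 0.962). These 6 genes were not called between genotypes. The 7 points share their libraries, and for *Nptx2* they form 2 separate genotype groups, so the coefficients describe likeness of pattern and no more.

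AMPA receptor subunits, the proteins that neuronal pentraxins bind, did not rise with *Nptx2*. Of the 4 subunit genes 0 were higher by edgeR (0 at an unadjusted p of 0.05 or less and 0 by DESeq2). By edgeR 1 was lower, against 1.87% of all tested genes. By DESeq2 2 were lower (*Gria1* and *Gria3*), against 729 of 19684 genes. *Gria3* was also called lower with the run of libraries as a covariate, without library 2 and in libraries 10 to 13 only. The median log2 fold change was -0.29, against -0.01 over all tested genes. *Gria1*, which encodes GluA1, had 13451, 12368, 13109 and 11596 normalized counts in controls 2, 3, 10 and 11, and 9520, 8864 and 8326 in mutants 5, 12 and 13. All mutants lay below all controls, as for 9.00% of all tested genes. The log2 fold change was -0.50 ± 0.09 (SE, adjusted p of 0.0154 in edgeR). This call was lost without library 10, 12 or 13 (adjusted p of 0.0527, 0.0752 and 0.104). *Gria4*, the subunit typical of parvalbumin interneurons, had 2409 to 3039 normalized counts in controls and 2147 to 2565 in mutants, with a log2 fold change of -0.20 (adjusted p of 0.362). *Gria3* gave -0.39 (adjusted p of 0.0643) and *Gria2* gave -0.03 (adjusted p of 0.942). The log2 fold change was below 0 for all 4 subunits, but only *Gria1* was called by edgeR. It was above 0 for 47.8% of all tested genes, so the sign alone says little.

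Auxiliary proteins of AMPA receptors, which set receptor traffic and gating, were mostly not called. Of 13 such genes 1 was higher and 1 was lower, against 2.97% and 1.87% over all tested genes, with a median log2 fold change of -0.13. Without library 3, *Shisa6* was also called lower (adjusted p of 0.00783). In libraries 10 to 13 only, *Shisa6* and *Shisa7* were also called lower (adjusted p of 0.00523 and 0.0404). *Cacng5*, a transmembrane regulatory protein of AMPA receptors, rose from 544, 401, 497 and 506 normalized counts in controls 2, 3, 10 and 11 to 1028, 1173 and 1149 in mutants 5, 12 and 13. The 95% interval of its log2 fold change was 0.93 to 1.47 (adjusted p of 0.00128 in edgeR), and that of *Nptx2* was 1.97 to 2.59. *Cacng3*, of the same family, had 4191 to 4612 normalized counts in controls and 3138 to 3614 in mutants (log2 fold change of -0.38, adjusted p of 0.0355). This call was lost with no filter on low counts (adjusted p of 0.0531) and on leaving out any one of libraries 2, 5, 10, 11, 12 and 13 (adjusted p of 0.0703 to 0.172).

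Genes that release or shed pentraxins were not called in the main fit. Astrocyte glypicans (*Gpc4*, *Gpc6*) and the receptor phosphatases *Ptprd* and *Ptprs* act in the release of *Nptx1*, and the protease *Adam17* cleaves *Nptxr* from the membrane. Of these 5 genes 0 were called by edgeR in the main fit or by DESeq2, against 4.85% called by edgeR over all tested genes. An unadjusted p of 0.05 or less was found for 1, and the median log2 fold change was 0.01. In libraries 10 to 13 only, *Ptprd* was called lower (adjusted p of 0.0379). *Adam17* had a log2 fold change of -0.04 (95% interval -0.22 to 0.14), and *Gpc6* had the largest of the list at 0.35 (adjusted p of 0.270).

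Other pentraxin genes were barely expressed. *Crp*, *Apcs*, *Mptx1* and *Mptx2* reached at most 4 counts in any library and were not tested. *Ptx3*, a secreted long pentraxin, had 15.2 to 43.2 normalized counts in controls and 46.6 to 66.1 in mutants (log2 fold change of 1.01, adjusted p of 0.174), and *Ptx4* had 8.13 to 17.6 and 5.17 to 8.52 (log2 fold change of -0.92, adjusted p of 0.301). Of these 2 genes 0 were called by edgeR or DESeq2 and 1 (*Ptx3*) had an unadjusted p of 0.05 or less, so *Nptx2* was the one gene called of the 5 pentraxin genes tested. *Ptx3* was called higher with the run of libraries as a covariate (adjusted p of 0.019) and in libraries 10 to 13 only (adjusted p of 0.0139).

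Complement proteins bind pentraxins, and of 5 such genes 1 was higher, against 2.97% over all tested genes. In libraries 10 to 13 only, *C3* was also called higher (adjusted p of 0.0455). The C1q chains *C1qa*, *C1qb* and *C1qc*, which neuronal pentraxins bind, had log2 fold changes of -0.15, -0.04 and 0.08 and were not called. *C4b* had 382, 327, 478 and 516 normalized counts in controls 2, 3, 10 and 11, and 1321, 1660 and 1489 in mutants 5, 12 and 13 (log2 fold change of 1.81 ± 0.16, adjusted p of 0.000734 in edgeR). Of its 36-base words 44.3% also occur in *C4a*, so its counts may hold reads of that copy.

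Perineuronal nets are the matrix around parvalbumin interneurons in which *Nptx2* protein accumulates. Of 8 net genes 3 were higher and 0 lower by edgeR, against 2.97% higher over all tested genes. By DESeq2 the counts were 4 and 0, against 1002 of 19684 genes higher. At an unadjusted p of 0.05 or less they were 4 and 0, against 3590 of 19684 in either direction. The median log2 fold change was 0.39, and 5 had all mutants above all controls, against 10.7% of all tested genes. *Hapln1*, the link protein of the net, had 2049, 1997, 2199 and 1991 normalized counts in controls 2, 3, 10 and 11, and 3443, 3806 and 3914 in mutants 5, 12 and 13 (log2 fold change of 0.85 ± 0.08, adjusted p of 0.000734 in edgeR). *Acan*, which encodes aggrecan, gave 0.99 (adjusted p of 0.0144), and this call was lost without library 5 or 13 (adjusted p of 0.0521 and 0.0754). *Vcan* gave 0.56 (adjusted p of 0.0228), and it was lost without library 2, 5, 12 or 13 (adjusted p of 0.0540 to 0.110). In the same libraries *Pvalb*, the marker of the cells that nets enwrap, had 753 to 1094 normalized counts in controls and 80.5 to 143 in mutants.

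Among other secreted proteins that organize synapses (cerebellins, C1q-like proteins, LGI proteins, thrombospondins and Sparcl1), 1 of 13 tested was higher and 0 were lower. Over all tested genes 2.97% were higher, and the median log2 fold change of the list was 0.30. By DESeq2 4 were higher and 0 lower, against 1002 of 19684 genes higher. At an unadjusted p of 0.05 or less 7 were higher and 0 lower, against 3590 of 19684 in either direction. *Thbs2*, a thrombospondin released by astrocytes, was the one called (0.75, adjusted p of 0.00766), and without library 13 its adjusted p was 0.0519. With the run as a covariate 6 were higher and 1 (*Lgi3*) was lower, against 1213 and 992 of 19684 genes. In libraries 10 to 13 only 5 were higher, against 1084 of 18686 genes. In 6 of the 13 all mutants lay above all controls, against 10.7% of all tested genes.

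Several genes that activity induces rose together with *Nptx2*. Of 9 such genes 5 were higher and 0 lower by edgeR, against 2.97% higher over all tested genes, with a median log2 fold change of 0.81. By DESeq2 the counts were 6 and 0, against 1002 of 19684 genes higher. At an unadjusted p of 0.05 or less they were 6 and 0, against 3590 of 19684 in either direction. *Bdnf*, a neurotrophin, had 906, 1075, 892 and 810 normalized counts in controls 2, 3, 10 and 11, and 4084, 3848 and 4087 in mutants 5, 12 and 13 (log2 fold change of 2.12 ± 0.10, adjusted p of 5.99e-05 in edgeR), and 13.2% of its 36-base words also occur in *Gm45346*. The secretory granule genes *Scg2* and *Vgf* rose by 1.76 ± 0.15 and 1.35 ± 0.16, the prohormone convertase *Pcsk1* by 0.81 ± 0.10 and *Inhba*, an activin subunit, by 2.12 ± 0.32 on the log2 scale. Each of these 5 had all mutant libraries above all controls, as *Nptx2* had. *Arc*, an early-response gene, and *Homer1*, a scaffold of the postsynaptic density, had log2 fold changes of -0.07 and 0.08 and were not called, nor were *Nrn1* (0.00) and *Plat* (0.32, adjusted p of 0.0629). The list was drawn up with earlier results of these samples known, so its count describes these genes and is no independent evidence of their direction.

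**Figure D3:**
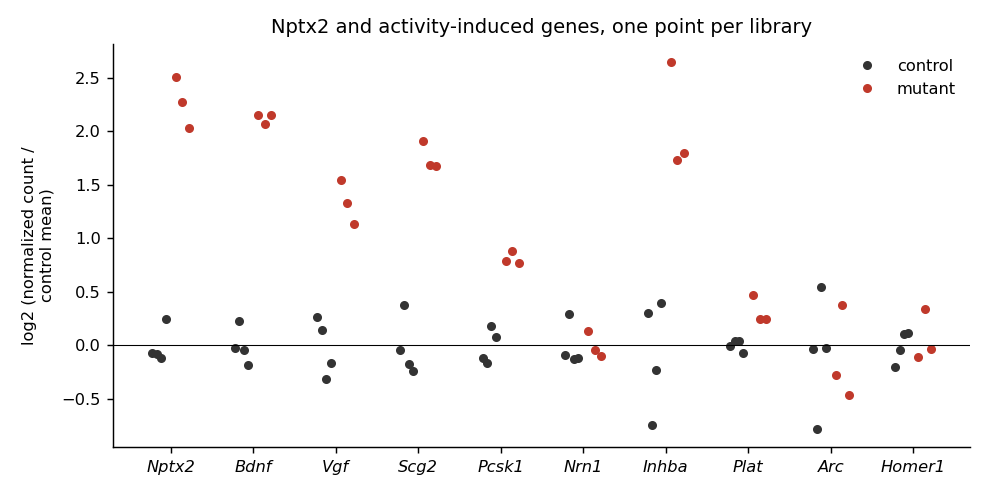
Log2 ratio of each library's normalized count to the control mean (vertical axis) for *Nptx2* and 9 activity-induced genes, one point per library. *Nptx2*, *Bdnf*, *Vgf*, *Scg2*, *Pcsk1*, *Inhba* and *Plat* have every mutant point above every control point, and *Nrn1*, *Arc* and *Homer1* do not.

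**Figure D4:**
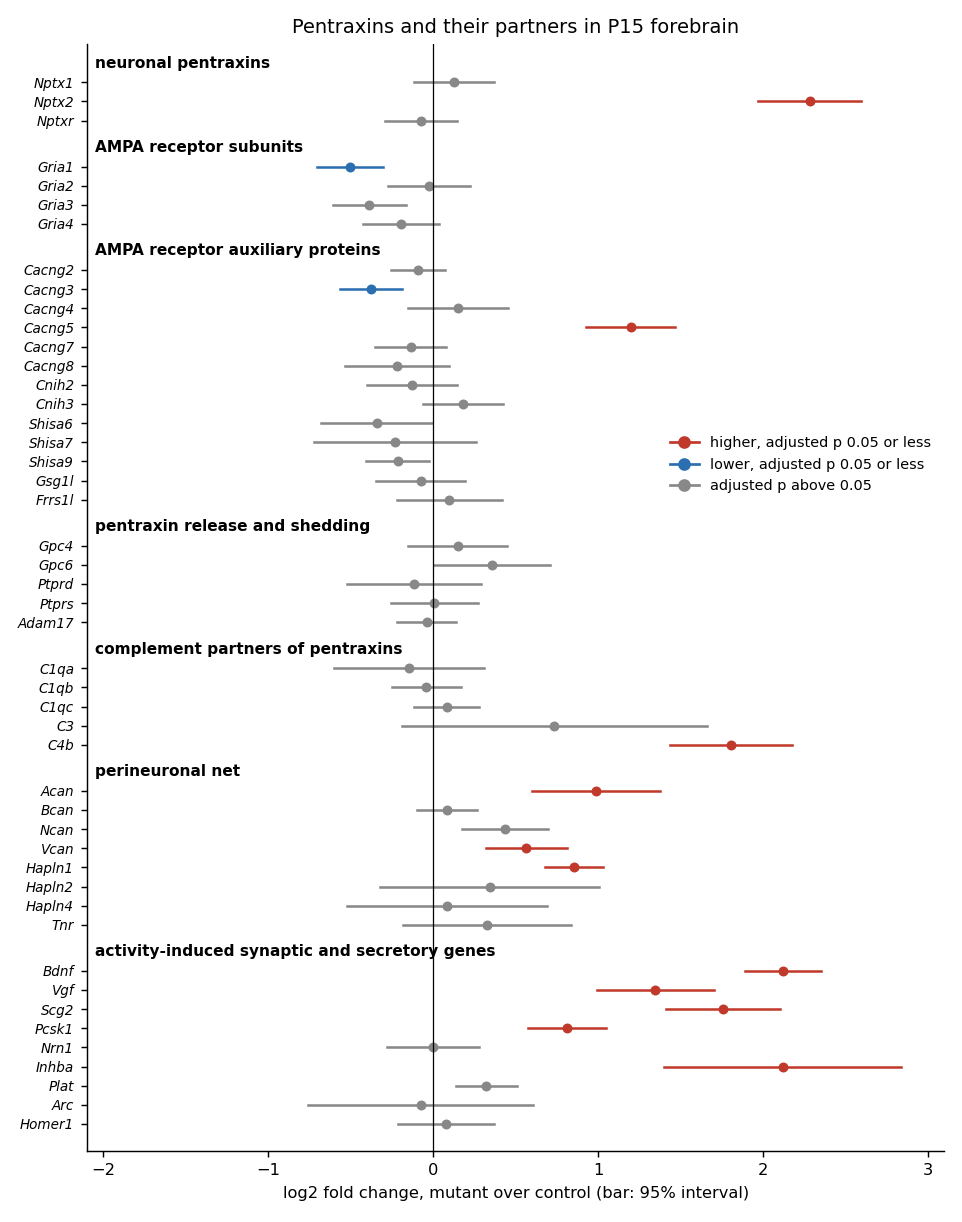
Log2 fold change of mutant over control (horizontal axis) with its 95% interval for the neuronal pentraxins and the genes of their partners. Colours mark genes called higher, called lower or not called at an adjusted p of 0.05, and *Nptx2*, at 2.28, lies to the right of every other gene drawn.

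Some markers of other cell types also differed between genotypes. Of 6 astrocyte markers 1 was called (*Gfap*, higher), against 2.97% higher over all tested genes, and 4 had all mutants above all controls, against 10.7%. The astrocyte count was 3 by DESeq2 and with the run as a covariate, 4 in libraries 10 to 13 only and 4 at an unadjusted p of 0.05 or less. Over all 19684 tested genes, 1002 were higher by DESeq2 and 1213 with that covariate. In libraries 10 to 13 only, 1084 of 18686 were higher. An unadjusted p of 0.05 or less was found for 3590 of 19684 genes in either direction. The summed astrocyte level was 184178 to 276115 in controls and 307242 to 360413 in mutants, most of it from *Slc1a2*, which was not called (138448 to 229945 and 232566 to 288170, adjusted p of 0.200). Of 5 oligodendrocyte markers 2 were lower (*Mbp* and *Mag*), against 1.87% lower over all tested genes, with sums of 213247 to 278817 in controls and 152476 to 190104 in mutants. That count was 5 with the run as a covariate (992 of 19684 genes lower) and in libraries 10 to 13 only (838 of 18686). It was 4 at an unadjusted p of 0.05 or less and 1 with no filter on low counts or without library 5. Without library 13 it was 0. Among markers of cortical excitatory neurons, which express neuronal pentraxins, *Slc17a7* had 62495 to 73436 normalized counts in controls and 73564 to 90141 in mutants and was not called (log2 fold change of 0.25, adjusted p of 0.203), and *Rorb* was lower, a call lost on leaving out any library but 2. Of 5 hippocampal markers 1 was lower (*Fibcd1*), against 1.87% over all tested genes, with sums of 7288 to 10032 and 7405 to 9528. The hippocampal count was 2 by DESeq2, without library 3 and in libraries 10 to 13 only. Of 7 striatal markers 1 was higher (*Penk*, lost without library 12 or 13), against 2.97% over all tested genes. The striatal sums were 12713 to 19347 and 18422 to 26634. Markers were also tested for thalamus (4), hypothalamus (3), microglia (5), endothelium (5) and choroid plexus (5). Of these 0 were called by edgeR in the main fit or by DESeq2. At an unadjusted p of 0.05 or less 1 thalamic, 2 microglial and 1 choroid plexus marker were lower and 2 endothelial markers higher. With the run as a covariate 1 microglial marker was lower and 2 endothelial markers were higher. Of the endothelial markers, 2 were higher in libraries 10 to 13 only and 1 without library 3. The hypothalamic markers *Oxt*, *Hcrt* and *Pmch* had at most 6 counts in any library. The part of these cell types in the *Nptx2* result was not tested.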

How the data were processed

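Forebrain RNA of 4 control and 3 mutant pools was made into libraries with the Illumina TruSeq RNA kit, which does not mark strand, and read as 36-base single ends. The authors trimmed reads with cutadapt 1.9.1, aligned them to the GRCm38 transcriptome with Bowtie2 2.2.9 and deposited expected counts per gene from RSEM 1.2.31, without normalization. A deposited comparison made with DESeq2 holds mean counts, fold changes, errors and p-values, and only its gene symbols and positions were used. Strand use in counting is not given in the sources used here.

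Expected counts were rounded and tested with edgeR 4.0.16 (TMM, quasi-likelihood F-test, Benjamini-Hochberg, threshold 0.05) on genes that reached 10 counts in 3 or more libraries. The 95% intervals come from the same fit. Alternatives were DESeq2 1.42.0, limma-voom 3.58.1, other normalizations and filters, and leaving out each library. The fit was tested on simulated data. Named genes were the members, every gene of the fixed partner lists, and the 3 genes most correlated with each member among those with a mean log2 CPM of 5 or more. Some marker genes are not reported here. Members and lists were chosen with earlier results of these data known. Libraries of a group differed by more than sampling noise. The limit behind 0 counts was 3 counts (0.0788 to 0.0921 CPM, counting error only). Sequences are from GENCODE M21, and exon positions and lengths from the deposited GRCm38 exon annotation.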

Additional observations from a re-analysis of the deposited data

Results flagged for a closer look

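Among the 4 control libraries, 4 of 63 genes looked at had a library far from the others by Dixon's criterion, and chance alone flags about 1 in 20. *Nptx2* in control library 11 stood at 2969 normalized counts against 2296, 2359 and 2383 in the other controls, a gap of 0.871 of the whole range. Library 11 is still far under the lowest mutant, 10190. In control library 3, *Shisa6* stood at 1165 (others 1701, 1803 and 1805, gap 0.838), *C1qb* at 1268 (others 1040, 1056 and 1076, gap 0.842) and *Nrn1* at 7442 (others 5536, 5596 and 5686, gap 0.921).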

How the results depend on the processing

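In all 17 alternatives each member kept its direction and its side of the threshold. The log2 fold change of *Nptx2* ranged from 2.09 to 2.40 (adjusted p from 3.42e-54 to 0.00163), that of *Nptx1* from 0.04 to 0.22 (0.5 to 0.922) and that of *Nptxr* from -0.16 to -0.02 (0.25 to 0.959). The number of genes called higher, 585, became 1002 with DESeq2, 1213 with the low or high run fitted as a covariate and 1084 with libraries 10 to 13 only, an alternative chosen after seeing the data, and 223 to 589 on leaving out 1 library. The number called lower, 369, became 729, 992 and 838 in the same order, and 79 to 382 on leaving out 1 library, with the lowest of both counts without library 13. The cause of these moves was not tested. Of 646 list counts over the settings, 582 stayed within 1.5 times the main count and 64 moved. With the longest transcript in place of all exons, 6 of 6 levels per kilobase moved by less than 1 SD. No paired analysis was possible because the columns carry a library number and not the replicate number of the labels. The number of pools limits precision more than depth, as each member had 2296 or more normalized counts in every library. What the runs of library numbers are, and which pool of the labels each column is, is not known here.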
